A study of Mus musculus with 6 samples.

Results

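The H/ACA box small nucleolar RNAs (snoRNAs) of the mouse atrioventricular canal (AVC) at embryonic day (E) 15.5 were taken as every gene of the deposited table that the mm9 GENCODE annotation types as snoRNA and whose symbol begins with Snora or SNORA, leaving out an interval of chromosome 12 that holds imprinted C/D box clusters. The rule gave 222 of the 18810 genes, carrying 78 distinct symbols once letter case was ignored, and no table gene was lost to the excluded interval. The annotation holds 1031 such genes, so 809 of them were annotated but not in the table. RNA came from hearts of C57BL/6 Scx-/- embryos (3 libraries) and Scx+/+ littermates (3 libraries), with no treatment and 1 library per heart, and the question of the study was which transcripts differ without Scleraxis (Scx), a basic helix-loop-helix factor of tendon and valve connective tissue. The AVC regions held the mitral, tricuspid and aortic valves and were dissected by hand without cell sorting, the null allele is constitutive, and the genotypes used are those of the sample labels.

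H/ACA box snoRNAs are short non-coding RNAs that fold into a pair of hairpins joined by a hinge, which carries the H box (letters ANANNA), and end in a tail with the letters ACA. Each binds the proteins dyskerin (Dkc1), Nop10, Nhp2 and Gar1, and its hairpins base-pair with ribosomal or spliceosomal RNA to select the uridine that dyskerin turns into pseudouridine. In mammals most are cut out of introns of host genes, many of which encode ribosomal or translation proteins, and some, such as SNORA73 (U17), act in the cleavage of the ribosomal RNA precursor.

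The sequences below are those of the members on which the comparison between genotypes turned. They were read from the mm9 genome (NCBIM37) at the annotated positions, 5′ to 3′, as DNA letters. Capitals mark ANANNA where RNAfold left it unpaired between 25 and 75% of the length, and the ACA that lies 3 bases from the 3′ end. A sequence without capitals has neither in that form. SNORA9 (ENSMUSG00000064513) lies at chr11:6428036-6428168 on the minus strand, over an exon of the non-coding gene Gm11974. SNORA48 (ENSMUSG00000087819) lies at chr10:110918549-110918692 on the plus strand, in an intron of Nap1l1. Snora21 (ENSMUSG00000064901) lies at chr11:97642953-97643089 on the minus strand, in an intron of Rpl23. SNORA84 (ENSMUSG00000087963) lies at chr13:49779670-49779802 on the plus strand, in an intron of Iars. SNORA63 (ENSMUSG00000064880) lies at chr16:23110456-23110580 on the plus strand and overlaps an exon of Eif4a2.
SNORA9: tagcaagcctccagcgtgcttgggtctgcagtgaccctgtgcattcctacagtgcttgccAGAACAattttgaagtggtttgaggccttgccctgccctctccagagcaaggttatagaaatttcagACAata
SNORA48: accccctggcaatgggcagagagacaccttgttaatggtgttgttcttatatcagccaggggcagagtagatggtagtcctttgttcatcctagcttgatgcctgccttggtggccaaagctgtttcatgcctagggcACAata
Snora21: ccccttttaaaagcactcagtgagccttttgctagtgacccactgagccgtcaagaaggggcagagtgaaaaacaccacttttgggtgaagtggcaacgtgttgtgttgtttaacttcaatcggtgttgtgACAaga
SNORA84: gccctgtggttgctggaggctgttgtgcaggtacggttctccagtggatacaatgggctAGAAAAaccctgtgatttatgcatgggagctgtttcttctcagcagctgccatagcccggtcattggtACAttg
SNORA63: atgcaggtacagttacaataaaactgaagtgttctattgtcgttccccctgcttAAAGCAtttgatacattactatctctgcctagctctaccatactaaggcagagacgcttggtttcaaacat

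The next sequences are copies that share a symbol and are shown for how little they differ. Each of their symbols also has identifiers that are not shown. SNORA25 occurs at chr9:15121120-15121252 on the plus strand, in Taf1d (ENSMUSG00000065663), at chr13:62238290-62238422 on the plus strand, in Zfp808 (ENSMUSG00000064997), and at chr13:62644563-62644695 on the minus strand, within no gene (ENSMUSG00000075946). The first pair is identical, and the last differs from both by T9C, counted from 1 at the 5′ end with the base of the copies in Taf1d and Zfp808 first. SNORA55 occurs in Pabpc4 at chr4:122968587-122968717 (ENSMUSG00000064655, plus strand) and in Kif13a at chr13:46862889-46863018 (ENSMUSG00000064558, minus strand), and these differ by 3 edits. SNORA32 occurs in Top2a at chr11:98878345-98878466 (ENSMUSG00000065262, minus strand) and in Hibadh at chr6:52589228-52589349 (ENSMUSG00000064792, minus strand). From the Hibadh copy to the Top2a copy the differences are C70A, G77T, T95A and T120C. SNORA42 (ENSMUSG00000077285) lies at chr11:98860822-98860936 on the plus strand, which is the strand opposite to Top2a.
SNORA25 in Taf1d and in Zfp808: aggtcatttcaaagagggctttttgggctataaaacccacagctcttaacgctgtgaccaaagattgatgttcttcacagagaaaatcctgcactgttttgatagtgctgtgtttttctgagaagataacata
SNORA25 in no gene: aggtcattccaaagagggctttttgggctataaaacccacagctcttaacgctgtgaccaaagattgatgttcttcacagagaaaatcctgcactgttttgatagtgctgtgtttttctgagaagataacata
SNORA55 in Pabpc4: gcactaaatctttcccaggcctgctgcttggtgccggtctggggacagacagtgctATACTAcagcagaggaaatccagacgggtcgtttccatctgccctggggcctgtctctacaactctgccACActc
SNORA55 in Kif13a: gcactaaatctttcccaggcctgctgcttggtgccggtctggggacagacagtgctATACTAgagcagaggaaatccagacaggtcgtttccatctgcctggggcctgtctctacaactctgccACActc
SNORA32 in Top2a: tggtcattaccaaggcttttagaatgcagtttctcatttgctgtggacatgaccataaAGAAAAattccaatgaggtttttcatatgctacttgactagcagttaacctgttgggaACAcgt
SNORA32 in Hibadh: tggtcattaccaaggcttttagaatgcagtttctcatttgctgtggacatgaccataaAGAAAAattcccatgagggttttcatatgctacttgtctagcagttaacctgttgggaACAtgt
SNORA42 opposite to Top2a: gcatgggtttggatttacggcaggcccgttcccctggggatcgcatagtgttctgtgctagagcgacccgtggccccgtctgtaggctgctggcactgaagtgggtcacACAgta

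The deposited unit was RPKM, reads normalized to exon length and library depth, with 1 common low value of 0.0949 RPKM in place of lower ones. Library depth, solved from the RPKM and exon lengths, ran from 46429973 to 68571004 reads, and a member of the median length at the fill-in value stood for under 1 read. Scx itself, summed over all its exons, was at 33.6, 18.6 and 82.9 RPKM in Scx-/- and at 29.5, 58.3 and 26.0 RPKM in Scx+/+, where values per library always follow the order of replicates 1, 2 and 3. The genotypes overlapped in this value, but the authors had checked the null allele in exon 1 and the table holds whole genes, so it does not check the labels. All 7 valve mesenchyme markers were listed, with summed levels of 293 to 448 RPKM in Scx-/- and 263 to 334 RPKM in Scx+/+. The 5 cardiomyocyte markers summed to 9957 to 13867 and 9335 to 15681 RPKM, and the 5 erythroid markers to 9502 to 14137 and 7750 to 13923 RPKM, so the dissected tissue also held heart muscle and blood. The 3 listed melanocyte markers, of 4, summed to 3.72 to 6.21 RPKM in Scx-/- and 2.21 to 2.95 RPKM in Scx+/+ without overlap, and Tyr was not listed. Their part in the results was not tested. The endocardium, smooth muscle and macrophage sums overlapped. In such bulk tissue fewer cells of a type and less RNA per cell cannot be told apart.

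Letters typical of the class were counted in the listed members and in the annotated genes that were not in the table, with no test. ACA at exactly 3 bases from the 3′ end (ACANNN as the last letters) was found in 122 of the 222 members (54.95%) and in 125 of the other 809 (15.5%), against 5 of the 163 C/D box snoRNAs in the table (3.07%), the class that guides ribose methylation. An unpaired ANANNA hinge was found in 93 members (41.9%) and in 170 of the 809 (21.0%). Both stood together in 63 members (28.4%), in 31 of the 809 (3.83%) and in 0 of the 163 C/D box snoRNAs. A match of letters is a description and not a tested box.

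A host, meaning another gene on the same strand whose span holds the member, was annotated for 144 members (64.9%) and for 82 of the 809 not in the table (10.1%). Of the 144, 131 lay in protein-coding genes and 13 in non-coding ones, and 19 lay in 15 ribosomal protein genes. Another 50 of the 78 members without a host lay on the strand opposite to a gene, and 28 lay in no gene. Members were 70 to 246 bases long, with a median of 132. Hosted members had a median level of 2.08 RPKM and the others 0.532 RPKM. The 93 members with both a host and ACA had a median of 2.83 RPKM, and the 49 with neither had 0.484 RPKM. Exons of another gene were overlapped by 36 members, in 28 of them exons of the host, and there reads of the host can count for the member.

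Abundance was held by few members. SNORA22, hosted by the chaperonin gene Cct6a, had the highest mean level, at 237, 364 and 683 RPKM in Scx-/- and 235, 1002 and 518 RPKM in Scx+/+. Snora23, hosted by the nuclear import receptor gene Ipo7, was at 126, 256 and 447 RPKM in Scx-/- and at 196, 1235 and 402 RPKM in Scx+/+. In both, Scx+/+ replicate 2 was the highest library, Scx-/- replicate 3 the next, and the genotypes overlapped. Snora74a (U19, in Snhg4), Snora81 (in Eif4a2), SNORA70 (in Rg9mtd1) and SNORA79 (in Fbxo45) completed the 6 most abundant, with means between 77.7 and 122 RPKM in Scx-/- and between 137 and 174 RPKM in Scx+/+. These 6 held 43.8% to 62.7% of the summed RPKM of the members. At the other end, 147 members had at least 1 library at the fill-in value and 62 had at least 4. Only 73 members reached 50 recovered reads in some library, and 149 did not, although the methods state a filter at about that number. The least values left in place stood for 5.54 to 6.51 reads per kilobase, so a short gene kept values of 1 read. The stated rules per gene thus do not match the recovered reads, which rest on a depth solved from the values and not on deposited counts.

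**Figure D1:**
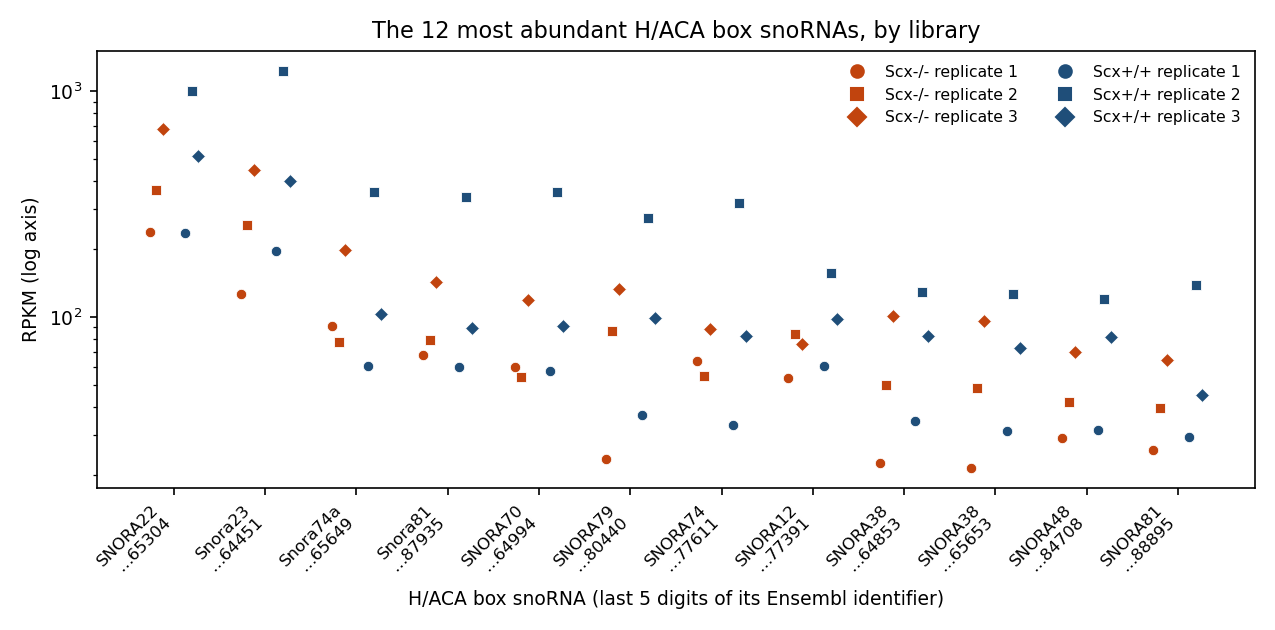
RPKM on a log axis (y) of the 12 H/ACA box snoRNAs with the highest mean level (x), with 1 point per library, Scx-/- in orange and Scx+/+ in blue. Scx+/+ replicate 2 is the highest point in all 12, and the genotypes overlap in each.

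None of the 6 most abundant members differed between genotypes beyond the spread of the libraries. The largest difference of log2(RPKM + 0.1), Scx-/- minus Scx+/+, was that of Snora23, at -0.92 (standard error 0.65, limma, unadjusted p = 0.193, adjusted p = 0.967), and it was -0.21 without Scx+/+ replicate 2. For SNORA22 the difference was -0.35 (standard error 0.54), and 0.16 without that library. The summed level of all members was 1381, 1860 and 2998 RPKM in Scx-/- and 1405, 5684 and 2494 RPKM in Scx+/+. The genotypes overlapped, and the difference of mean log2 sums was -0.46 with a pooled SD of 0.82 (n = 3 per genotype), or 0.08 without Scx+/+ replicate 2. As a share of the RPKM of genes of at most 300 bases, the members took 0.822% to 1.18% of a library, with Scx+/+ replicate 2 at 0.970%, inside that range, and the difference of mean log2 shares was -0.20 with a pooled SD of 0.20. The members took 0.144% to 0.248% of all RPKM of a library.

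The libraries of a genotype differed from each other by more than counting error. Over the 75 members with a mean of at least 20 reads, the median residual SD within genotypes was 0.94 on the log2 scale, against a median of 0.20 from counting alone, and it was above its counting SD in all 75. Over all 222 members the median residual SD was 1.29, over all 18810 genes 0.38, and over the 163 C/D box snoRNAs 1.54. Relative to each member's mean, the median deviation of the 75 was -0.64, -0.14 and 0.36 in Scx-/- and -0.31, 1.05 and 0.24 in Scx+/+. Scx+/+ replicate 2 was the highest library in 44 of the 75, and Scx-/- replicate 1 the lowest in 31. The mean of reads was taken over all libraries, so a member high in 1 library could enter the 75 through it. The same Scx+/+ replicate 2 also had the most members at the fill-in value, 107 of 222, against 60 to 82 in the other libraries, so it was the highest in deeper members and the one most often without a value. This was also the shallowest library, at 46429973 reads, and the part of depth in its fill-in values was not tested. Over the 888 genes of at most 300 bases with a mean of at least 1 RPKM its median deviation was 0.25, and over all 13827 genes at that level it was -0.05. The 7SK RNA, the most abundant gene, was at 326606 RPKM in this library and at 68724 to 119661 RPKM in the other 5. Its part in the deviation was not tested.

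**Figure D2:**
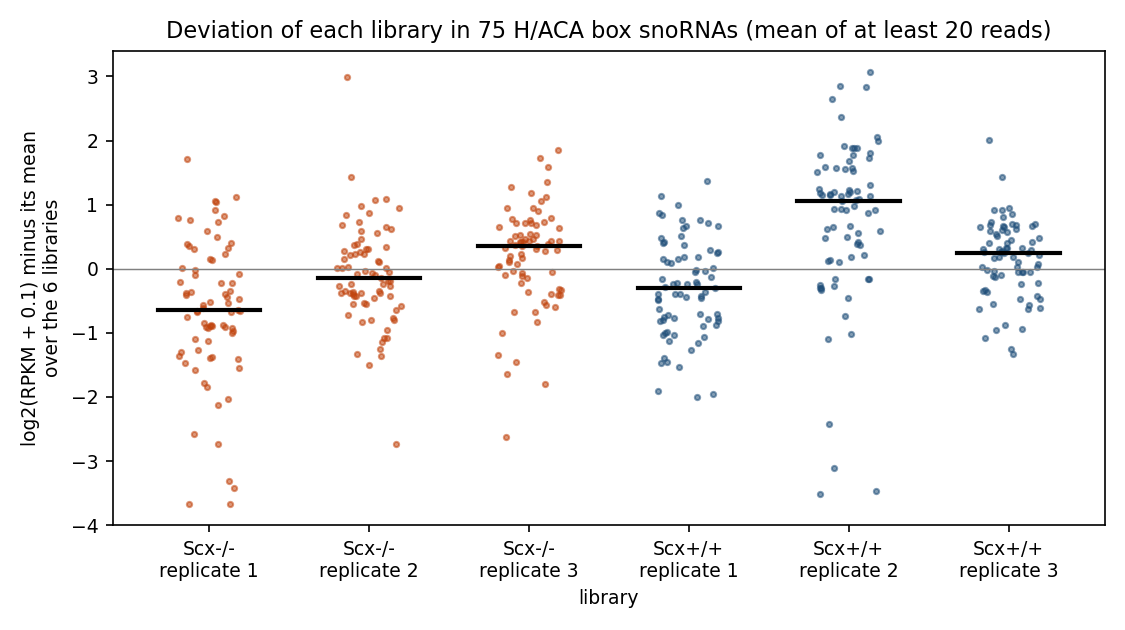
Deviation of log2(RPKM + 0.1) from the mean of the 6 libraries (y, log2 units) in each library (x) for the 75 H/ACA box snoRNAs with a mean of at least 20 reads, with 1 point per snoRNA and a black bar at the median. The bar of Scx+/+ replicate 2 stands at 1.05 and that of Scx-/- replicate 1 at -0.64, while libraries of the same genotype lie on both sides of 0.

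To ask which members differed without Scx, limma was fitted to log2(RPKM + 0.1) of all 18810 genes, with an unadjusted p of under 0.05, the threshold of the study, taken as a call. Of the 222 members, 30 were called (13.5%), 13 higher and 17 lower in Scx-/-, against 3.89% of all genes called (2.82% higher, 1.06% lower). No member, and no gene, passed an adjusted p below 0.05, and the smallest adjusted p of a member was 0.446. The share called depended on the estimate of the spread. With a spread that was not pooled across genes, 8 members passed an unadjusted p below 0.05 (3.60%), against 4.6% of all genes. Libraries of the genotypes did not overlap in 12 members (5.41%), 4 higher and 8 lower, against 9.5% of all genes (7.19% higher, 2.31% lower). By these last measures the share of members was no larger than that of all genes.

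The calls also moved with single libraries. Without Scx-/- replicate 1 there were 19 calls, 10 higher and 9 lower, without Scx-/- replicate 2 there were 19, 13 higher and 6 lower, and without Scx+/+ replicate 3 there were 17, 8 higher and 9 lower. The share of all genes called was not compared in these fits, so a change of the whole fit cannot be told apart from one of the members. Without Scx+/+ replicate 2, the library that stood apart, 25 members were called, 8 higher and 17 lower (11.3%), against 8.23% of all genes. The median difference over the 222 members was -0.17, or 0.09 without that library, beside 0.10 over all genes. By depth, the 13 called members with a mean of at least 20 reads were 2 higher and 11 lower. The 17 below that depth were 11 higher and 6 lower. Over all 75 members of the greater depth the median difference was -0.46, or 0.04 without Scx+/+ replicate 2, and 9 were called without it. Shares of all genes by depth were not compared. A mean over both genotypes admits members through the genotype in which they are high, so directions at the greater depth are not independent of the filter. Of the 30, 18 had 1 or more libraries at the fill-in value. In those members the fitted difference depends on the value added before the logarithm and is no bound.

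**Figure D3:**
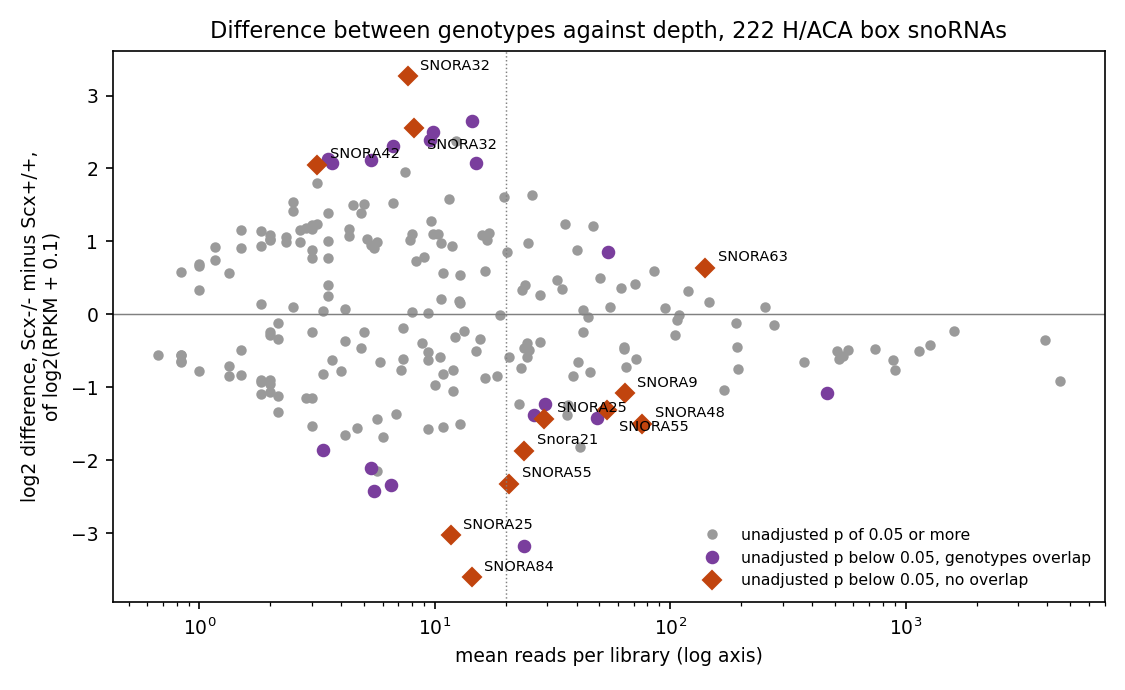
Difference of log2(RPKM + 0.1), Scx-/- minus Scx+/+ (y), against the mean reads per library on a log axis (x) for the 222 H/ACA box snoRNAs. Orange diamonds are the 12 called members without overlap between genotypes, purple points the other called members, grey points the rest, and the dotted line marks 20 reads. Most called members to its right lie below 0.

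Among the 75 members with a mean of at least 20 reads, 7 had no overlap between genotypes (9.33%), 6 lower and 1 higher in Scx-/-, beside 9.5% of all genes. That mean was taken over both genotypes, so a member could pass through the genotype in which it was high. SNORA25 outside any gene, SNORA55 in Kif13a and Snora21 had a mean under 20 reads in Scx-/- alone. The directions are therefore not independent of the filter. SNORA9 was at 5.60, 5.05 and 5.03 RPKM in Scx-/- and at 8.14, 14.6 and 11.6 RPKM in Scx+/+, or 39, 45 and 40 reads against 65, 90 and 106. Every Scx-/- library lay below every Scx+/+ library, and the Scx-/- values lay close together. The difference was -1.08 (standard error 0.24, limma, unadjusted p = 0.00152, adjusted p = 0.967), and -0.88 without Scx+/+ replicate 2. The exon that SNORA9 overlaps belongs to Gm11974, whose own level was 4.97 ± 0.87 RPKM in Scx-/- and 4.98 ± 2.36 RPKM in Scx+/+ (SD, n = 3 each). A second SNORA9 gene (ENSMUSG00000064392) overlapped between genotypes, at 2.40 ± 1.07 and 4.003 ± 2.85 RPKM (SD, n = 3 each).

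SNORA25 outside any gene was at 1.58, 2.36 and 2.01 RPKM in Scx-/- and at 4.38, 6.32 and 5.81 RPKM in Scx+/+. The 3 values of each genotype lay close together and apart from the others, and its residual SD of 0.27 was the smallest of the 75 deeper members. The difference was -1.43 (standard error 0.26, limma, unadjusted p = 0.000431, adjusted p = 0.799). The identical copies in Taf1d and Zfp808, which differ from it by 1 base, overlapped between genotypes. Their means were 7.78 ± 6.37 and 7.81 ± 6.83 RPKM in Scx-/- and 8.66 ± 2.43 and 8.60 ± 2.50 RPKM in Scx+/+ (SD, n = 3 each). The difference between the copies in their response was not tested, and reads that cover none of the differing base cannot be placed between them. A SNORA25 on chromosome 11 (ENSMUSG00000065379) was not called, with a difference of -1.57, or -0.27 without Scx+/+ replicate 2. Another on chromosome X (ENSMUSG00000088335) was not called either, with a difference of 0.93.

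Both SNORA55 copies that were called were lower. The copy in Kif13a, a kinesin gene, was at 1.03, 0.804 and 0.515 RPKM in Scx-/- and 2.18, 9.77 and 3.37 RPKM in Scx+/+, a difference of -2.32 (standard error 0.53, limma, unadjusted p = 0.00176, adjusted p = 0.967). The copy in Pabpc4, a poly(A)-binding protein gene, was at 3.21, 4.44 and 3.71 RPKM in Scx-/- and 5.09, 18.1 and 9.24 RPKM in Scx+/+, a difference of -1.31 (standard error 0.41, limma, unadjusted p = 0.0103, adjusted p = 0.967). In both the Scx+/+ values spread widely, with replicate 2 highest, and without that library the differences were -1.71 and -0.85. The call of the Pabpc4 copy held in 3 of the 6 fits on 5 libraries and was lost with the unpooled spread. A further SNORA55 lies in the same gene Pabpc4 (ENSMUSG00000065778), 4 substitutions away (T28C, T29C, T96C and C131T). It stood at 2.46 ± 0.90 RPKM in Scx-/- and 1.74 ± 0.97 RPKM in Scx+/+ (SD, n = 3 each), with overlap. The SNORA55 on chromosome 1 (ENSMUSG00000065255) was not called, with a difference of -1.51, or -0.15 without Scx+/+ replicate 2.

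Snora21, from an intron of the ribosomal protein gene Rpl23, was at 1.26, 0.872 and 1.59 RPKM in Scx-/- and at 4.13, 8.17 and 2.98 RPKM in Scx+/+. All Scx-/- libraries were below all Scx+/+ libraries, with a difference of -1.87 (standard error 0.40, limma, unadjusted p = 0.00124, adjusted p = 0.967). Rpl23 itself did not pass, at 228 ± 5.77 and 211 ± 26.5 RPKM (SD, n = 3 each). SNORA48, from an intron of the histone chaperone gene Nap1l1, was at 3.45, 4.35 and 5.81 RPKM in Scx-/- and at 9.72, 26.0 and 8.10 RPKM in Scx+/+. The genotypes did not overlap, and the difference was -1.497 (standard error 0.41, limma, unadjusted p = 0.00576, adjusted p = 0.967), or -0.98 without Scx+/+ replicate 2. Its call held in 4 of the 6 fits that each left out 1 library.

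The one deeper member without overlap that was higher in Scx-/- was SNORA63 (E3) over an exon of the translation initiation factor gene Eif4a2, at 31.3, 18.6 and 21.3 RPKM against 17.9, 15.0 and 12.1 RPKM. The lowest Scx-/- library lay just above the highest Scx+/+ library. The difference was 0.64 (standard error 0.24, limma, unadjusted p = 0.0245, adjusted p = 0.967), and its call held in 2 of the 6 fits that left out 1 library. Eif4a2 was at 95.8 ± 10.9 RPKM in Scx-/- and 75.4 ± 7.40 RPKM in Scx+/+ (SD, n = 3 each), a difference of 0.34 that was not called, and its part in the value of the overlapping snoRNA was not tested.

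**Figure D4:**
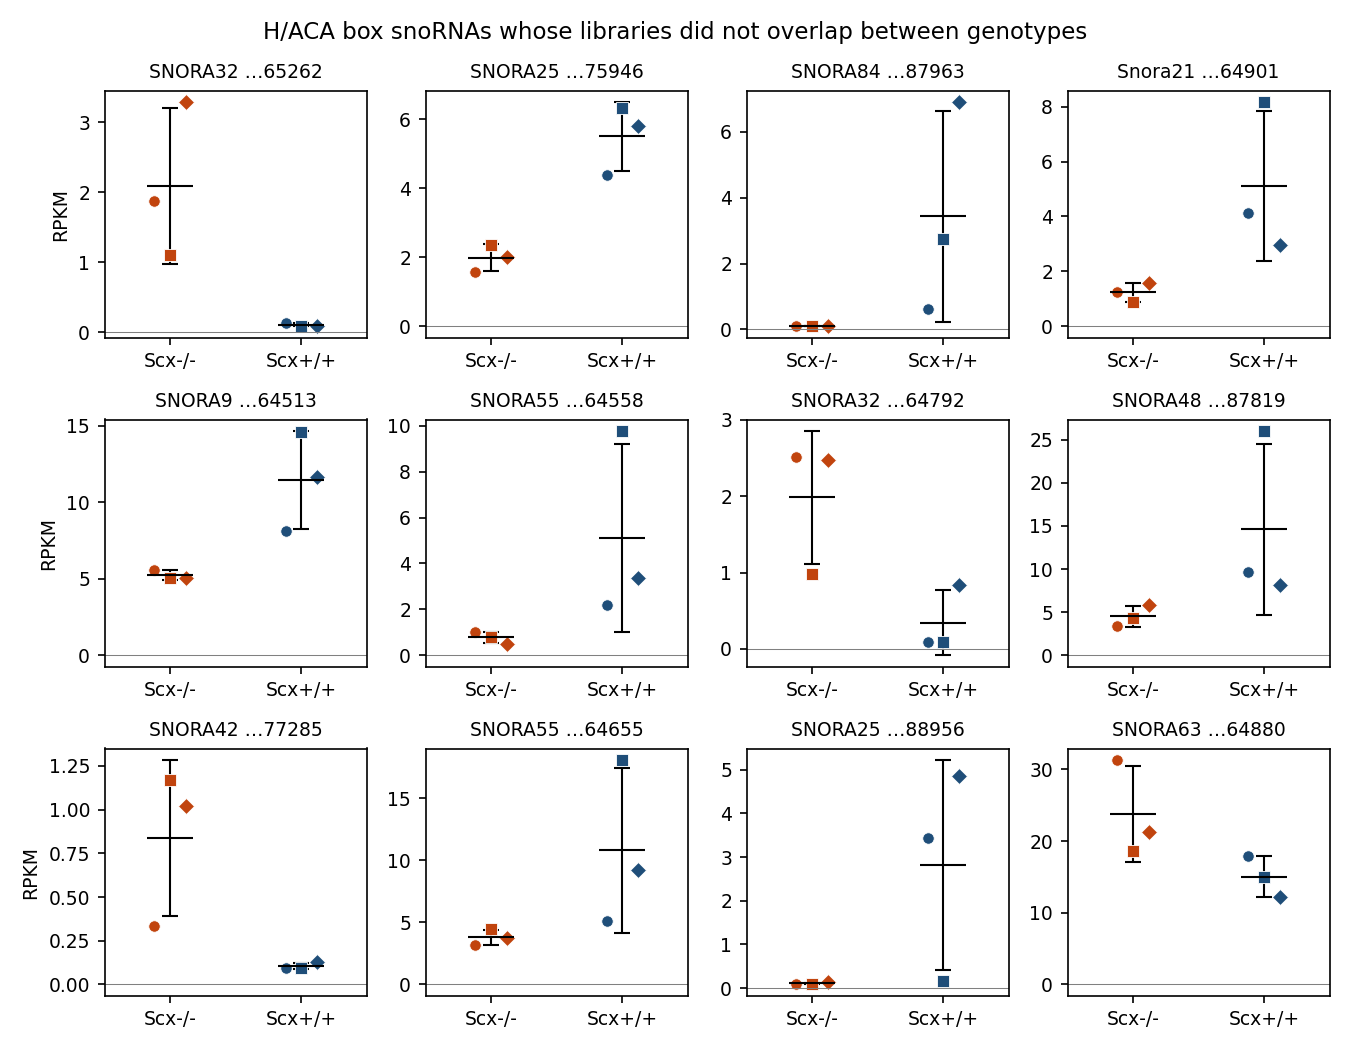
RPKM (y, linear axis, each panel with its own scale) of the 12 H/ACA box snoRNAs without overlap between genotypes, ordered by p, with the last 5 digits of the Ensembl identifier. Points are libraries (circle, square and diamond for replicates 1, 2 and 3), bars are the mean and SD (n = 3). In 8 panels Scx-/- lies below Scx+/+ and in 4 above it.

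The remaining members without overlap rested on few reads over all libraries, with a mean below that of each deeper member described above. Among those deeper members, SNORA25 outside any gene, SNORA55 in Kif13a and Snora21 also rested on few reads in Scx-/-. SNORA84, from an intron of the isoleucyl-tRNA synthetase gene Iars, stood at the fill-in value in Scx-/- replicates 1 and 3 and at 1 read in replicate 2, against 5, 17 and 63 reads in Scx+/+. All Scx+/+ libraries were above all Scx-/- libraries, but they themselves spread from 0.626 to 6.91 RPKM. The fitted difference was -3.60 (limma, unadjusted p = 0.000988, adjusted p = 0.967), and it was -4.38 with 0.01 and -1.73 with 1 added to the RPKM. SNORA25 on chromosome 11 (ENSMUSG00000088956) had 26, 1 and 42 reads in Scx+/+ and 1 read in a single Scx-/- library. In reads the genotypes thus tied at 1, and their RPKM did not overlap only because Scx+/+ replicate 2 was the shallowest library. Its call held in only 1 of the 6 fits on 5 libraries.

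In the other direction, 2 SNORA32 copies of few reads were higher in Scx-/-. The copy in Top2a, the gene of DNA topoisomerase II alpha, had 12, 9 and 24 reads in Scx-/- and 1 read in a single Scx+/+ library, and it had the smallest p of all members. Its fitted difference was 3.27 (limma, unadjusted p = 0.000113, adjusted p = 0.446), ranging from 1.42 with 1 added to the RPKM to 4.02 with 0.01. It overlaps an exon of Top2a, which was at 103 ± 4.66 RPKM in Scx-/- and 89.4 ± 10.9 RPKM in Scx+/+ (SD, n = 3 each) and was not called. The copy in Hibadh had 16, 8 and 18 reads in Scx-/- and 7 reads in 1 Scx+/+ library, with a fitted difference of 2.56 (limma, unadjusted p = 0.00492, adjusted p = 0.967).

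SNORA42 on the strand opposite to Top2a, 17409 bases from the SNORA32 copy, had 2, 9 and 7 reads in Scx-/- and 1 read in a single Scx+/+ library. Its fitted difference was 2.05 (limma, unadjusted p = 0.00684, adjusted p = 0.967). Whether counting used strand is not given in the sources used here, so reads from Top2a and from this snoRNA cannot be told apart. The best covered SNORA32, in Taf1d (ENSMUSG00000065265), had a mean of 253 reads and stood at 46.5 ± 30.9 RPKM in Scx-/- and 40.9 ± 19.3 RPKM in Scx+/+ (SD, n = 3 each). The symbol SNORA32 therefore covered 9 identifiers, of which 2 were called higher, 1 lower and 6 not at all. SNORA9, SNORA21, SNORA25, SNORA32, SNORA42, SNORA55 and SNORA84 are also the H/ACA symbols of the study's own list of changed non-coding RNAs, chosen on these libraries, so their calls are not independent evidence. Under these symbols stood 33 identifiers, of which 12 were called.

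Outside those symbols the called members were mostly ones with overlap between genotypes. SNORA79 in Gtf2a1, a general transcription factor gene, was the most abundant called member, at 20.2, 29.4 and 62.4 RPKM in Scx-/- and 44.5, 103 and 77.8 RPKM in Scx+/+. The highest Scx-/- library lay above the lowest Scx+/+ library, and the difference was -1.08 (standard error 0.42, limma, unadjusted p = 0.031, adjusted p = 0.967). The 3 other SNORA79 identifiers were not called, with differences between -1.04 and -0.63, and the most abundant of them, in Fbxo45, had a standard error of 0.77. Snora3 in Rpl27a was higher, at 9.41, 13.3 and 4.69 RPKM against 4.42, 5.55 and 3.98 RPKM. Of 4 SNORA19 identifiers, 3 were called higher, with differences from 2.40 to 2.65 and means of 9.5 to 14.3 reads, and 2 of these are identical in sequence. SNORA79, Snora3 and SNORA19 were picked out here after their values were seen.

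Copies of a sequence limited how many of the identifiers were separate measurements. At an identity of at least 95%, 48 members fell into 19 groups of copies, and the 222 identifiers came to 193 groups. The identical SNORA25 genes in Taf1d and Zfp808 had 104, 50 and 22 against 108, 48 and 20 reads in Scx-/-, and 90, 40 and 75 against 90, 39 and 75 reads in Scx+/+. An identical pair of 70-base SNORA32 genes on chromosome 13 (ENSMUSG00000087978 and ENSMUSG00000088727) both had 8 reads in Scx+/+ replicate 1 and 24 in replicate 3. In Scx-/- the first had 1 read in replicate 3 and the second 3 reads in replicate 1 and 1 in replicate 3. Equal or near-equal reads were thus listed at both genes of an identical pair. With 1 identifier kept per group, 25 of 193 were called, 11 higher and 14 lower, in the pooled fit that called 3.89% of all genes. The unpooled spread and the overlap between genotypes were not compared by group. SNORA17 was the largest symbol, with 36 identifiers of which 1 was called.

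Host genes varied less over the libraries than their snoRNAs. The 144 hosted members had 116 distinct hosts, of which 112 were in the table and 1 was called, against 3.89% of all genes. With the unpooled spread 6 hosts passed, against 4.6% of all genes, and 13 were called without Scx+/+ replicate 2, against 8.23%. Without Scx+/+ replicate 1 there were 9, and the share of all genes was not compared in that fit. The median difference of the hosts was 0.10, equal to that of all genes. The host called with all libraries was Nop56, a core protein of C/D box particles, at 24.1, 19.9 and 21.2 RPKM in Scx-/- and 16.6, 15.0 and 13.1 RPKM in Scx+/+, a difference of 0.54 (standard error 0.17, limma, unadjusted p = 0.012, adjusted p = 0.967). Its SNORA51 went the other way, at 2.01, 2.24 and 6.29 RPKM against 6.26, 17.98 and 5.15 RPKM, a difference of -1.42 with overlap between genotypes. Of 140 members with a host in the table, 66 had a difference of the same sign as the host, and of the 23 called ones 12 did. The 66 members with a mean of at least 20 reads and a host in the table had 50 distinct hosts, so some hosts served several members. The highest library exceeded the lowest by a median of 5.98-fold in the members and 1.55-fold in the hosts. Of the 66 members, 65 varied more than their host. Most hosts held more reads than their members, and the part of depth in this was not tested. Scx+/+ replicate 2 was the highest library for 41 of these members and for the host of 17.

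SnoRNAs of 1 host did not share 1 pattern. Taf1d, a subunit gene of the RNA polymerase I initiation factor, holds 6 members and was at 54.5 ± 3.32 RPKM in Scx-/- and 43.0 ± 5.43 RPKM in Scx+/+ (SD, n = 3 each). Of its members, SNORA1 alone was called, at 1.01, 6.40 and 1.51 RPKM in Scx-/- and 1.13, 0.0949 and 0.548 RPKM in Scx+/+, with overlap. Its SNORA8 was highest in Scx+/+ replicate 2, at 66.8 RPKM, whereas SNORA18 of the same gene was lowest there, at 0.822 RPKM. In Eif4a2, Snora81 reached 340 RPKM in Scx+/+ replicate 2 and 59.9 to 143 RPKM in the other libraries, whereas SNORA4 stayed between 7.43 and 15.3 RPKM in all 6. All 3 members in the ribosomal protein gene Rpsa, SNORA62 (E2), SNORA73 and Snora62, were highest in Scx+/+ replicate 2, at 64.2, 100.2 and 10.6 RPKM.

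**Figure D5:**
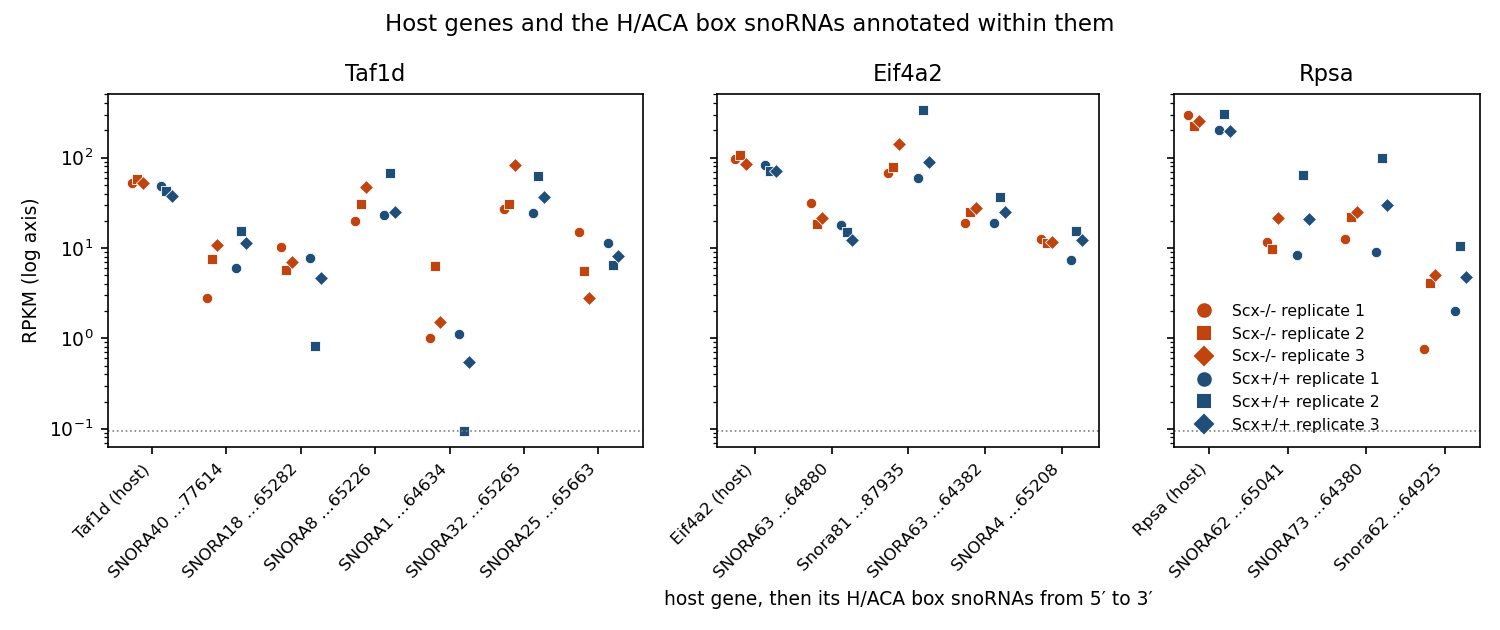
RPKM on a log axis (y) of the host genes Taf1d, Eif4a2 and Rpsa and of the H/ACA box snoRNAs annotated within them in genomic order (x), with 1 point per library, Scx-/- in orange and Scx+/+ in blue, and a dotted line at the fill-in value of 0.0949 RPKM. The 6 points of each host lie close together, and those of most snoRNAs are spread over a wider range.

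The genes of the proteins that bind, assemble or act beside these RNAs were compared in the same fit. Of 29 genes of a list covering the particle, its assembly factors, stand-alone pseudouridine synthases and RNA trimming, 27 were in the table, and Tert and Terc, of telomerase, were not. Of the 27, 1 was called, against 3.89% of all genes. With the unpooled spread 2 passed, against 4.6% of all genes, and 3 were called without Scx+/+ replicate 2, against 8.23%. Dkc1 was at 14.2 ± 0.77 RPKM in Scx-/- and 14.1 ± 2.40 RPKM in Scx+/+, Nop10 at 32.03 ± 5.14 and 35.2 ± 8.80 RPKM, Nhp2 at 12.4 ± 0.80 and 11.3 ± 4.08 RPKM, and Gar1 at 0.548 ± 0.347 and 0.545 ± 0.408 RPKM (SD, n = 3 each). Differences of these 4 ran from -0.12 to 0.18 with overlap in each. The called gene was Rpusd1, a pseudouridine synthase, at 0.471, 0.482 and 0.472 RPKM in Scx-/- and 0.205, 0.0949 and 0.0949 RPKM in Scx+/+, a difference of 1.34 (standard error 0.53, limma, unadjusted p = 0.0328, adjusted p = 0.967). Its call was lost with a block on the replicate number and with the median of short genes set to 0, and the study lists it among its changed genes, chosen on these libraries, so it is not independent evidence. Pusl1, another pseudouridine synthase, did not overlap either, at 2.40, 2.54 and 2.09 RPKM against 1.89, 1.30 and 1.75 RPKM, but was not called (difference 0.50, standard error 0.28). Of the 27, 20 had a difference above 0, with a median of 0.16 beside 0.10 over all genes.

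C/D box snoRNAs, the other class of the table, also had a share of limma calls above that of all genes, and most of their calls were higher in Scx-/-. Of 163, 19 were called (11.7%), 16 higher and 3 lower in Scx-/-, against 3.89% of all genes. With the unpooled spread 8 of the 163 passed, against 4.6% of all genes, and 13 had no overlap (7.98%), against 9.5%, so these shares were close to or below those of all genes. With at least 20 reads, 4 of 43 were called, all higher, against 13 of 75 H/ACA members, 11 of them lower. Shares of all genes at this depth were not compared, and the filter admits snoRNAs of both classes through the genotype in which they are high. With the unpooled spread 0 of the 43 and 4 of the 75 passed. No overlap was found in 9.30% and 9.33%, beside 9.5% of all genes at any depth. The median deviation of Scx+/+ replicate 2 was -0.03 in the 43 and 1.05 in the 75. The difference between the classes was not tested, and both classes had a median residual SD above that of all genes.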

How the data were processed

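RNA-seq libraries of AVC regions from 3 Scx-/- and 3 Scx+/+ embryos were analysed from the deposited RPKM. By their methods, the authors aligned reads to mm9 with TopHat 1.4.1 (also in the submitters' processing notes), used SAMtools on the alignments, counted reads within Ensembl exons with easyRNASeq, and deposited RPKM per gene after keeping genes of about 50 reads in at least 1 library and replacing low values. Strand, selection of RNA and read length are not given in the sources used here. The table's only other content is gene identifiers, and no column was left out. The sequence of 1 member is not reported here.

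Identifiers were matched to GENCODE M1 on NCBIM37 (mm9), which gave symbols, types, positions, exons and sequences. Reads were recovered as RPKM times exon length times depth, with whole numbers within 0.1 for 98.5% to 98.6% of values, and served as a description. No count test was run. limma 3.58.1 in R 4.3.3 was fitted to log2(RPKM + 0.1) of all 18810 genes with an intensity trend and without covariates, and p-values were adjusted by Benjamini-Hochberg. On simulated data with 200 changed genes of 18810, folds of 2, 4 and 8 were called at an unadjusted p below 0.05 in 74%, 85% and 98.5%, and unchanged genes in 4.90% to 5.29%. The changed genes were drawn from all genes, and the values were independent normal ones without fill-in, read counting or shifts of a whole library. The median residual SD was 0.38 over all genes and 1.29 over the members, so these shares do not give the recovery for the members. Folding used RNAfold 2.7.2, sequences and summaries Python 3.11.15 (pandas 2.3.3, numpy 2.4.6) and figures matplotlib 3.10.9. The labels number 3 replicates per genotype, and the study gives 3 embryos of each. The limma p-values therefore rest on the spread between embryos of these litters and their libraries, partly pooled across genes.

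The members, gene lists, tests and alternatives were chosen with earlier results of these data known. Named were all identifiers of the H/ACA symbols in the study's supplementary list, the 6 most abundant members, the 8 with the smallest p, up to 10 members without overlap of at least 20 reads, their hosts and the machinery list. Alternatives were pseudocounts of 0.01 and 1, filters on level and reads, limma without a trend, an unpooled spread, quantile normalization, 2 median scalings, a block on the replicate number, and leaving out each library.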

Additional observations from a re-analysis of the deposited data

How the results depend on the processing

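Depth limited the comparison, since 149 members reached 50 reads in no library and 147 had a library at the fill-in value. Of 400 values of named genes under other settings, 376 kept direction and side of the threshold, 15 no longer passed the threshold, 1 newly passed it and 8 changed sign. Over fits that each left out 1 library, 215 of 276 kept both.

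Against 30 of 222 members called, limma without a trend called 19 and a spread not pooled across genes 8. Filters kept fewer members, with 17 of 108 called at a mean of at least 10 reads. At a mean of at least 1 RPKM 21 of 127 were called. Leaving out 1 library gave 17 to 25. With alternatives chosen after seeing the data, 25 of 193 copy groups and 23 of 186 members over no exon were called. Among the alternatives, shares of all genes were compared only for the unpooled spread and for leaving out Scx+/+ replicate 2. Of the 41 named members 14 were called, or 8 with the unpooled spread, and 10 to 15 with 1 library left out. Many were named for a small p, for lack of overlap or for the study's list, so calls among them are not independent evidence. Hosts called were 1, or 6 with the unpooled spread, 3 with quantile normalization or with either median set to 0, and 1 to 13 with 1 library left out (13 without Scx+/+ replicate 2). Machinery genes called were 1 of 27, or 2 with the unpooled spread, 0 with the short-gene median set to 0, and 1 to 3 with 1 library left out (3 without Scx+/+ replicate 2). A mean of at least 1 RPKM left 23 of these genes, without the called Rpusd1, and 0 were called. The summed level ranged from -0.93 to 0.08 with 1 library left out. The causes were not tested.

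Replicate numbers did not pair the libraries (correlations of 0.09, -0.22 and -0.19). With the replicate number as a block 34 members were called (15 higher, 19 lower), 14 of the 41 named members, 2 hosts and 0 machinery genes.

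The sign of these values changed. SNORA32 (ENSMUSG00000065265) went to -0.0072 with the all-gene median set to 0. SNORA42 (ENSMUSG00000084433) went to -0.0044 with a pseudocount of 1, -0.013 with quantile normalization and -0.088 with that median. Dkc1 went to -0.076 and -0.077, and Gar1 to -0.081 and -0.027, in these 2 scalings. With 1 library left out, the ranges that crossed 0 were -0.12 to 0.11 for Dkc1, -0.37 to 0.56 for Gar1, -0.24 to 0.079 for Nop10, -0.89 to 0.16 for SNORA22, -1.31 to 0.0076 for SNORA70, -1.35 to 0.10 for SNORA79 (ENSMUSG00000080440), -0.78 to 0.50 for Snora74a and -0.93 to 0.32 for Snora81. They were -1.16 to 0.13 and -1.08 to 0.12 for SNORA25 (ENSMUSG00000064997 and ENSMUSG00000065663), -0.40 to 0.46 for SNORA32 (ENSMUSG00000065265), and -0.54 to 1.88, -0.99 to 1.04 and -1.99 to 0.092 for SNORA42 (ENSMUSG00000064427, ENSMUSG00000084433 and ENSMUSG00000084625). For SNORA84 (ENSMUSG00000088806) the range was -0.87 to 0.28 and for SNORA9 (ENSMUSG00000064392) -1.24 to 0.078.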
